A study of Mus musculus with 20 samples.

Results

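Glycolysis splits glucose into pyruvate in the cytosol, and pyruvate is then either reduced to lactate or carried into mitochondria, where pyruvate dehydrogenase feeds the tricarboxylic acid (TCA) cycle. Many steps are run by several isozymes, that is, proteins from different genes that catalyse the same reaction, so a tissue can change which gene serves a step without changing the pathway as a whole. Ovarian surface epithelium (OSE) is the single cell layer that covers the ovary. The 37 genes described here were listed by name: 17 of glycolysis, from the glucose transporter Slc2a1 to lactate dehydrogenase, 5 of pyruvate entry into mitochondria and 15 of the TCA cycle and its cytosolic counterparts. All 37 were among the 14299 genes of the count table.

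Primary cultures of mouse OSE cells were kept for 48 hours in hormone-free medium and then for 15 days with 100 nM of the estrogen estradiol (E2), or with ethanol at 0.0002% as vehicle (control). Single cells were captured on 1 Fluidigm C1 chip, whose columns each gave 1 library, read from the 3′ end of transcripts. Control cells filled columns 1 to 10, and E2-treated cells filled columns 11 to 20. Column 13 was not analysed here, which left 10 control libraries with 329 cells and 9 E2 libraries with 260 cells. The labels name no strain, age or genotype of the mice, and no genetic change. All columns of a condition were filled from 1 cell suspension, so the p-values measure the spread between libraries of the same suspension, and E2 cannot be told apart from any other difference between the 2 suspensions.

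The authors divided the cells into 2 clusters. The larger cluster, called responsive here, held 203 control and 218 E2-treated cells. Cluster 1 held 126 control and 42 E2-treated cells. In the deposited metadata, cluster 1 carries the label 2 and the responsive cluster the label 1. Counts were added up over the cells of each library and cluster, and sums of at least 3 cells were kept: 10 control and 9 E2 sums of responsive cells, and 10 control and 7 E2 sums of cluster 1 cells. Responsive sums held 2136904 to 3904027 reads, control sums of cluster 1 held 712198 to 2224038, and E2 sums of cluster 1 held 233995 to 771505. Levels are given as CPM, the counts of a gene scaled to the TMM-adjusted size of such a sum, and they are shares of the RNA counted, not amounts per cell. A gene was called when edgeR's quasi-likelihood test gave a Benjamini-Hochberg adjusted p below 0.05 over all genes tested together with an absolute log2 fold change above 0.5.

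Of 13 markers of OSE, 12 were in the table and none of these was at 0 reads in any of the 4 groups. Between the clusters, Krt18 and Msln were called higher in cluster 1, and Krt8, Krt19 and Upk1b were called lower. Of 9 stromal fibroblast markers, 6 were in the table. Col1a2 was called higher in cluster 1 while Col1a1, Col3a1 and Thy1 were called lower, and their summed level was 1978 to 2393 CPM in responsive control sums, 1700 to 4669 CPM in responsive E2 sums, 2723 to 4396 CPM in control sums of cluster 1 and 2673 to 10445 CPM in E2 sums of cluster 1. Without E2 column 15 the highest of these were 2164 CPM in responsive E2 sums and 4576 CPM in E2 sums of cluster 1. Star, 1 of 3 theca or luteal markers in the table, and Inha, 1 of 2 granulosa markers, were called higher in cluster 1. The summed theca or luteal level had medians of 42.0 and 42.6 CPM in responsive control and E2 sums and of 182 and 222 CPM in those of cluster 1, and that of the granulosa markers had medians of 18.4, 19.2, 54.6 and 41.2 CPM in the same order. The leukocyte markers Cd68 and Cd14 (2 of 5 in the table) and the oviduct markers Epcam and Ovgp1 (2 of 3) were called lower in cluster 1. Their summed medians were 101, 91.9, 50.4 and 15.6 CPM for leukocytes and 93.8, 77.7, 41.8 and 30.4 CPM for oviduct in that order. Endothelium markers, 2 of 6 in the table, had summed medians of 525, 499, 440 and 436 CPM, and the 1 tested was not called. Those of smooth muscle or pericyte were 2.07, 0.898, 0 and 0 CPM, and those of erythroid cells 18.5, 0, 0 and 0 CPM, with no call. With E2 in responsive cells, Krt19 was called higher (log2 fold change 0.62) and Thy1 lower (-2.78), and no marker was called with E2 in cluster 1. The median cell had fewer reads in cluster 1 (112126 in control, 87632 in E2) than among responsive cells (143233 in control, 117809 in E2), and a larger share of mitochondrial reads (2.53% and 3.55% against 2.08% and 2.43%). The part of these differences in the results below was not tested.

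One library stood apart. Over 1902 genes above 100 CPM, the log2 level of the responsive cells of E2 column 15 differed from the mean of the other E2 libraries with an SD of 1.17, whereas this SD was 0.315 to 0.479 in the other 18 libraries. Column 15 had the highest Idh1, Ldhb, Mdh1, Pdhb and Pfkp of the E2 libraries, so several values that moved with it are also given without it.

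Of the windows around transcription starts of these genes, 6 are printed because their genes carry the main results: Idh1 changed with E2, Ldhb and Ldha changed in ratio, and Hk2 and Eno1 differed between the clusters in opposite directions. Each window runs from 250 bases before to 50 bases after a start and is taken from RefSeq on GRCm38.p6, read 5′ to 3′ on the strand of the gene. Capitals mark matches, on either strand, of ACGTG or GCGTG, the core letters of the hypoxia response element to which hypoxia-inducible factor (HIF) binds. Where 2 matches overlap on opposite strands they read as CACGTG, which is also the E-box.
Idh1, chr1:65179093-65179392, minus strand: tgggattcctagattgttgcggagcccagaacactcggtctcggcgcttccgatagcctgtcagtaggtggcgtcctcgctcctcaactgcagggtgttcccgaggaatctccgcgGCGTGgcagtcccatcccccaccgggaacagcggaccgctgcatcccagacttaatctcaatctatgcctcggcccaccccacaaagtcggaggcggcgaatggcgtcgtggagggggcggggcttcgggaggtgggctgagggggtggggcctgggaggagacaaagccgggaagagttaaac
Idh1, chr1:65186430-65186729, minus strand: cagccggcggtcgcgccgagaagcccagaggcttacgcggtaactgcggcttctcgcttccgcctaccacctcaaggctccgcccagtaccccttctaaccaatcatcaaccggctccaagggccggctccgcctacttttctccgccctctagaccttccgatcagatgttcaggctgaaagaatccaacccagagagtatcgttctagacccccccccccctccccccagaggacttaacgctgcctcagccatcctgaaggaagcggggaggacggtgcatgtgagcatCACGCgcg
Ldha, chr7:46845554-46845853, plus strand: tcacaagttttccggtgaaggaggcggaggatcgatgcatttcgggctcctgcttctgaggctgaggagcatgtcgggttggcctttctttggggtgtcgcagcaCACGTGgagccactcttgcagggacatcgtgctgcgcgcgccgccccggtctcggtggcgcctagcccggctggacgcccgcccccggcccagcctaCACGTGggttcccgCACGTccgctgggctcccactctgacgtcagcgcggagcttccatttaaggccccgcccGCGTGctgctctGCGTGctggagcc
Ldhb, chr6:142507908-142508207, minus strand: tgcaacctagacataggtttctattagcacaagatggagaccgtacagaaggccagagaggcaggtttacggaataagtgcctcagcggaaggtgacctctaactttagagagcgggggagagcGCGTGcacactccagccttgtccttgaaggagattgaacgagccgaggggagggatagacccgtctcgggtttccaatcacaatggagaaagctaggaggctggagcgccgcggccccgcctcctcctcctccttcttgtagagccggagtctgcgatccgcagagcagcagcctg
Hk2, chr6:82774405-82774704, minus strand: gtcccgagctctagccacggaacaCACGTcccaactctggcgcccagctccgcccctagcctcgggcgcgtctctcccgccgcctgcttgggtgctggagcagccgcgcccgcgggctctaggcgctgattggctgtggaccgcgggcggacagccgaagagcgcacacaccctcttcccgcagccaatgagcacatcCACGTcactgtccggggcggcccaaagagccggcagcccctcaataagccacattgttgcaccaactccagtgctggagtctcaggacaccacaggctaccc
Eno1, chr4:150236947-150237246, plus strand: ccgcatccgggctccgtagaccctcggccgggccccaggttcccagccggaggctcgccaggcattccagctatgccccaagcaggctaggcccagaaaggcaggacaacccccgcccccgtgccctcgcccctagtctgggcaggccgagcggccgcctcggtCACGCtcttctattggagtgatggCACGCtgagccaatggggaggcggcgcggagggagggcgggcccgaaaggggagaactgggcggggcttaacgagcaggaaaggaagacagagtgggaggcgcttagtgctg
The Ldha window printed here held 7 matches and the other Ldha window of the table held 2. The Ldhb window held 1, Hk2 held 2, each of the 3 Eno1 windows of the table held 2 and each Idh1 window held 1. Among the 36 members with a window in the table, 27 had at least 1 match in at least 1 window: 15 of 17 glycolysis genes, 4 of 5 pyruvate entry genes and 8 of 14 TCA genes. Counted by window, 40 of 55 windows of members (72.7%) held a match, and so did 14380 of all 32851 windows (43.8%). The excess was not particular to this motif. The SP1 box GGGCGG, also searched, was in 33 of the 55 windows of members (60%) and in 35.7% of all windows. The full estrogen response element, the arms GGTCA and TGACC with 3 bases between them, was found in 0 of the 55 windows and in 0.07% of all windows. A match of letters is no evidence that a factor binds there, and these genes were not compared on base composition.

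With E2, 1 member rose in responsive cells, the isocitrate dehydrogenase gene Idh1. Its product is the cytosolic, NADP-dependent enzyme, which makes NADPH and alpha-ketoglutarate outside mitochondria and does not turn the TCA cycle itself. In control libraries Idh1 was at 130 CPM at the lowest, 196 CPM at the median and 255 CPM at the highest. In E2 libraries these levels were 313, 394 and 1130 CPM. Every E2 library was above every control library, and the highest value was that of column 15. The log2 fold change was 1.27 (SE 0.20, a 2.41-fold rise, edgeR adjusted p = 0.000288). Without column 15 it was 1.00 (SE 0.13, edgeR adjusted p = 1.39e-05), and the next highest E2 library was at 502 CPM. After each cell was thinned to 20000 reads, Idh1 was detected in 82.3% of responsive control cells and 90.8% of responsive E2 cells. Over all genes, 1.37% were called in this comparison (0.848% higher and 0.526% lower), and the libraries of the 2 conditions did not overlap for 0.419% of genes.

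The other members for isocitrate dehydrogenase were not called. Idh2 encodes the mitochondrial NADP-dependent enzyme, and its log2 fold change was -0.51 (SE 0.19, edgeR adjusted p = 0.326). Idh3a, Idh3b and Idh3g encode the subunits of the NAD-dependent enzyme of the cycle, and their values were 0.65, -0.08 and 0.40. None of the 3 had an edgeR adjusted p below 0.380. Thus 1 of 15 TCA members and 0 of 5 pyruvate entry members were called, with median log2 fold changes of 0.27 and 0.46 beside a median of 0.02 over all 10265 genes tested. Without column 15 these medians were 0.25 for the TCA list and 0.02 for pyruvate entry. The summed TCA level was 2063 to 2590 CPM in control and 2226 to 4959 CPM in E2 libraries, and column 15 was the highest of these. Without it the E2 libraries ran from 2226 to 3038 CPM.

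Mdh2, the mitochondrial malate dehydrogenase that regenerates oxaloacetate, came nearest to the threshold among the members that were not called. It was at 232, 288 and 309 CPM (lowest, median and highest) in control libraries and at 249, 381 and 584 CPM in E2 libraries. The groups overlapped, since E2 columns 12 and 16 were below the highest control library. The log2 fold change was 0.52 (SE 0.15, edgeR adjusted p = 0.0722). It passed with DESeq2 (adjusted p = 0.0257), after thinning (edgeR adjusted p = 0.0174) and without E2 column 16 (edgeR adjusted p = 0.0279), and without column 15 its edgeR adjusted p was 0.0908. Mdh1, the cytosolic partner of Mdh2 in the malate-aspartate shuttle, had a log2 fold change of 0.18 (SE 0.15), which was 0.01 without column 15.

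No glycolysis member was called with E2 in responsive cells (0 of 17, edgeR), and 4 had an unadjusted p below 0.05. These were Ldhb (log2 fold change 0.33), Pkm (-0.34), Ldha (-0.36) and Tpi1 (-0.26), with edgeR adjusted p-values of 0.284, 0.289, 0.316 and 0.447. DESeq2 and limma-voom also called 0 glycolysis members. The median over the 17 genes was -0.11 (-0.04 without column 15), and single values ran from -0.62 for Pfkl, the liver-type phosphofructokinase, to 0.84 for Hk1. Summed over the list, glycolysis was at 6484 to 9268 CPM in control and 6834 to 8835 CPM in E2 libraries, and the ranges overlapped nearly throughout.

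**Figure D1:**
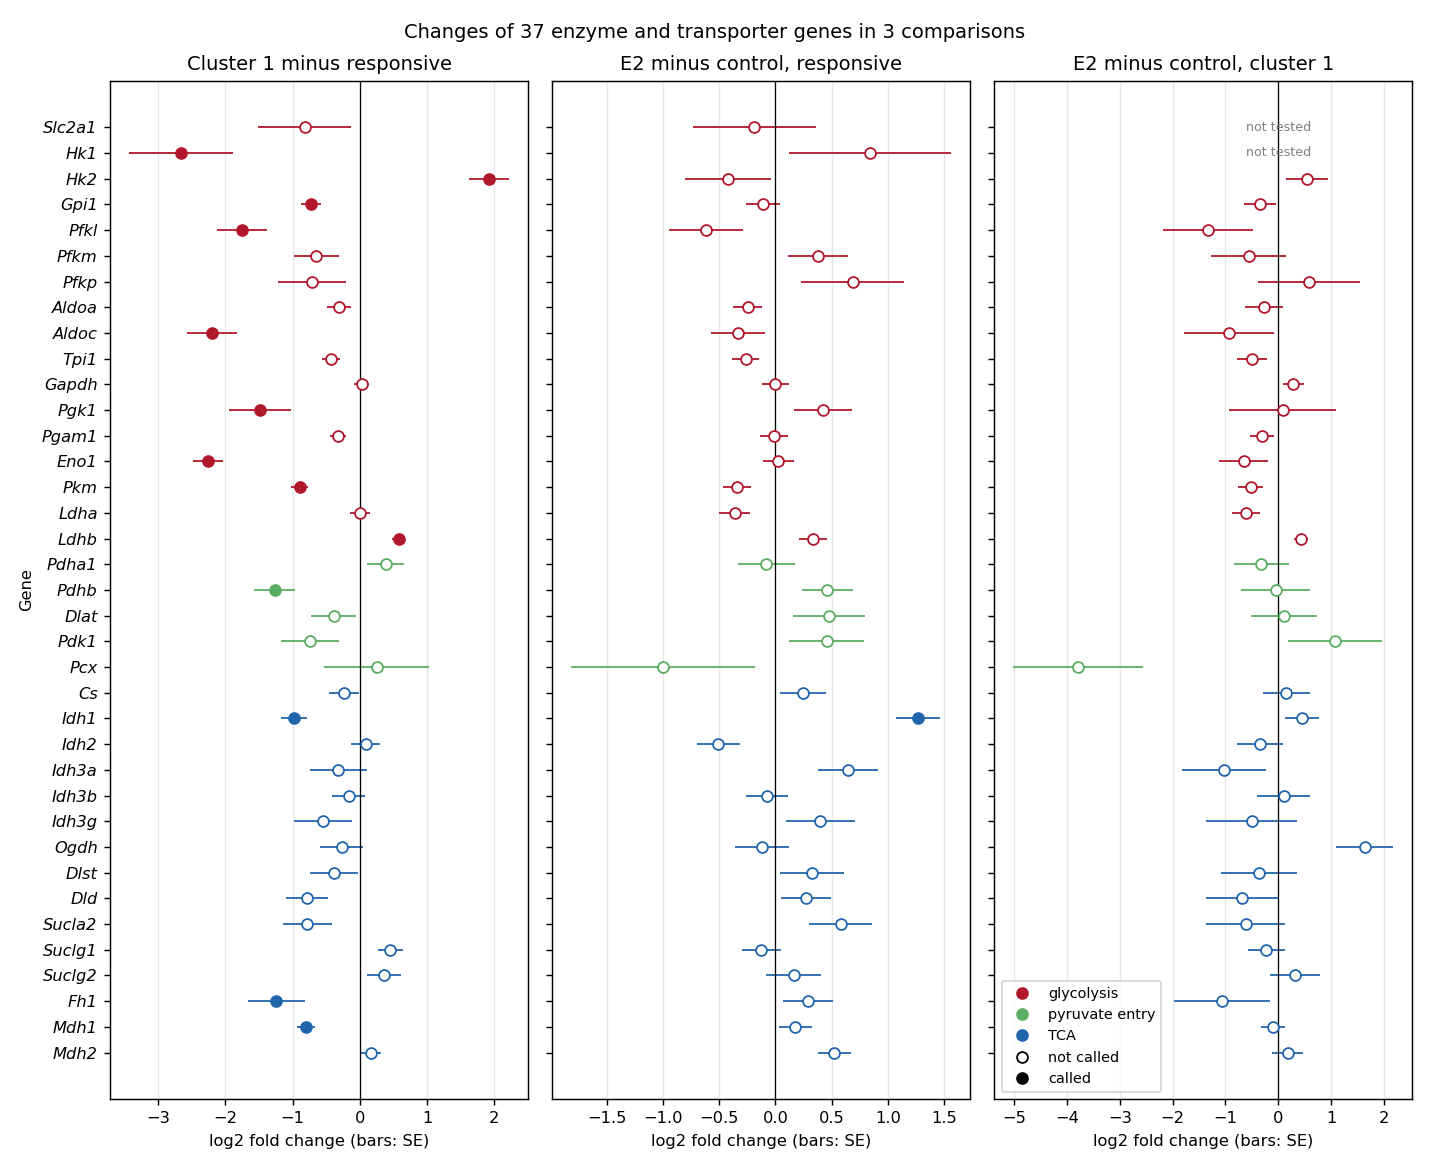
Log2 fold changes (x axis) of the 37 genes (y axis, coloured by list) in 3 comparisons, with SE from edgeR as bars and filled points for called genes. The x axes differ between panels. Idh1 is the only filled point for E2, and 13 genes are filled between the clusters, 11 of them lower in cluster 1.

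The lactate dehydrogenase pair changed in ratio with E2 although neither gene was called. Ldha encodes the muscle-type M subunit, which favours the reduction of pyruvate to lactate, and Ldhb encodes the heart-type H subunit, which favours the oxidation of lactate to pyruvate. In responsive cells Ldhb was at 1729, 2083 and 2309 CPM (lowest, median and highest) in control and at 2188, 2290 and 4495 CPM in E2 libraries. Ldha was at 297, 451 and 600 CPM in control and at 258, 345 and 429 CPM in E2 libraries. For each gene alone the groups overlapped. A ratio of both genes within a library needs no scaling to its size, and gene length cancels from the change of that ratio.

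The log2 ratio of Ldhb to Ldha in responsive cells averaged 2.21 ± 0.37 (SD) over 10 control libraries and 2.85 ± 0.28 (SD) over 9 E2 libraries. The difference of the means was 0.65, larger than either SD (exact two-sided permutation p = 0.000541, adjusted p = 0.00217 over 8 tests of 4 ratios). The ranges overlapped, at 1.53 to 2.96 in control and 2.53 to 3.39 in E2. Without column 15 the difference was 0.58 (exact permutation p = 0.00126, adjusted p = 0.00503).

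The ratio rose with E2 in cluster 1 cells as well, where it averaged 2.59 ± 0.35 (SD) over 10 control sums and 3.84 ± 0.83 (SD) over 7 E2 sums. The difference was 1.24 (exact two-sided permutation p = 0.000463, adjusted p = 0.00217), and 1.17 without column 15. Of the 2 genes, Ldhb was at 2157, 3103 and 3613 CPM in control and 3082, 4048 and 4590 CPM in E2 sums of cluster 1. Ldha was at 412, 490 and 592 CPM in control and at 106, 263 and 571 CPM in E2 sums. Most E2 sums were high in Ldhb and low in Ldha, with overlap for each gene. The E2 change of the ratio was not compared between the clusters by a test, and for each gene alone the interaction was not called (edgeR adjusted p = 0.973 for Ldhb and 0.799 for Ldha).

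The other 3 isozyme ratios were not past the threshold with E2 in either cluster. The nearest was Hk2 to Hk1 in responsive cells, at 4.71 ± 1.83 (SD) over 10 control libraries against 2.76 ± 1.97 (SD) over 9 E2 libraries (exact permutation p = 0.0381, adjusted p = 0.102). Without column 15 the difference was -1.53 (exact permutation p = 0.0831, adjusted p = 0.133). Hk1 was close to its detection limit in most libraries, with 0 to 12.8 CPM in control and 2.07 to 19.7 CPM in E2. Pfkp to Pfkl in cluster 1 differed by 2.64 (exact permutation p = 0.0539, adjusted p = 0.108). Both genes were near the floor there, with 81 reads of Pfkp and 40 of Pfkl over 7 E2 sums, each at 0 in 2 sums. Aldoc to Aldoa differed by -0.10 in responsive cells and by -1.26 in cluster 1 (adjusted p = 0.696 and 0.386, exact permutation tests).

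**Figure D2:**
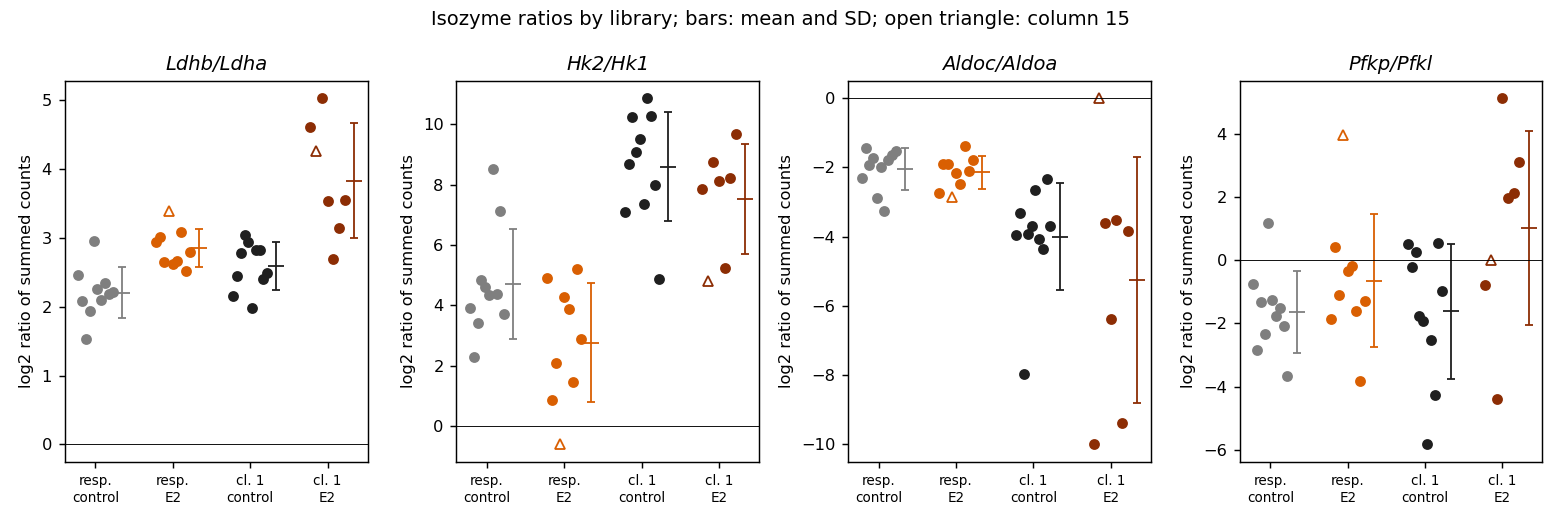
Log2 ratios of summed counts (y axis) of 4 isozyme pairs in each library (points) of 4 groups (x axis), with mean and SD beside them and column 15 as an open triangle. Ldhb to Ldha is higher with E2 in both clusters, and Hk2 to Hk1 is higher in cluster 1 than in responsive cells.

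In cluster 1 cells no member was called with E2 (edgeR, 0 of 35 tested), where 0.0839% of 8340 genes were called (0.036% higher and 0.048% lower). Hk1 and Slc2a1 had too few reads to be tested there. An unadjusted p below 0.05 was found for 5 members, and DESeq2 and limma-voom called 0 as well. The SE of these members had a median of 0.51 on the log2 scale, against 0.23 in responsive cells, so changes were measured with less precision. The median log2 fold change was -0.35 for glycolysis, -0.05 for pyruvate entry and -0.22 for the TCA list, beside -0.06 over all genes. Idh1 itself was at 65.2, 122 and 211 CPM (lowest, median and highest) in control and at 67.7, 176 and 266 CPM in E2 sums of cluster 1. These groups overlapped, with a log2 fold change of 0.45 (SE 0.33, edgeR adjusted p = 0.837). The difference of the E2 change between the clusters was -0.87 for Idh1 (SE 0.35, edgeR adjusted p = 0.313), and 0 of 37 members were called for such a difference, where 0.184% of 11398 genes were called (0.0175% higher and 0.167% lower). For that difference 3 members had an unadjusted p below 0.05 with edgeR, and DESeq2 and limma-voom called 0.

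Ogdh and Pcx had larger fitted changes in cluster 1 without being called. The gene Ogdh, for a subunit of the alpha-ketoglutarate dehydrogenase complex, had a log2 fold change of 1.64 (edgeR adjusted p = 0.372), which was 0.57 without column 15. Pcx, the pyruvate carboxylase that makes oxaloacetate from pyruvate, had 4 reads over 7 E2 sums, 6 of them at 0, and 328 reads over 10 control sums (edgeR adjusted p = 0.352).

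Between the clusters, a few glycolysis genes were higher in cluster 1 and more were lower. The clusters were made from the expression of the same genes, so these values describe the clusters and test nothing independent of them. Of 17 glycolysis members, 2 were called higher in cluster 1 and 7 lower, beside 15.9% of all 10597 genes called (6.12% higher and 9.81% lower). The median log2 difference, cluster 1 minus responsive cells, was -0.71 for glycolysis (-0.48 without column 15) and -0.06 over all genes. The median of all genes depended on the model. It was -0.32 with limma-voom and -0.40 with each library as a block, which pairs the clusters within a library. With other size factors (RLE) it moved from that of the main fit by 0.10, to 0.05. The calls over all genes were then 866 higher and 875 lower in place of 649 higher and 1040 lower. The glycolysis calls were 2 higher and 7 lower with either scaling. The glycolysis median was not computed with limma-voom, the block or RLE factors, so its contrast with all genes holds only for the main model.

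The first step of glycolysis, the phosphorylation of glucose, went in opposite directions for its 2 hexokinase genes. Hk2, an inducible hexokinase of growing and insulin-sensitive cells, was at 26.2, 74.7 and 166 CPM (lowest, median and highest) in control and 2.27, 79.9 and 97.4 CPM in E2 libraries of responsive cells. In cluster 1 it was at 108, 212 and 480 CPM in control and at 138, 230 and 1023 CPM in E2 sums. It was higher in cluster 1 in 15 of 17 libraries, with a log2 difference of 1.92 (SE 0.30, edgeR adjusted p = 4.16e-06).

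Hk1, the hexokinase of most tissues, had 405 reads over all responsive sums and 20 reads over all sums of cluster 1. Its log2 difference was -2.66 (SE 0.77, edgeR adjusted p = 0.0120), with 0 reads in 8 of 10 control and 5 of 7 E2 sums of cluster 1. Control column 10 held 15 of the 20 reads, and without it the difference was -3.86 (SE 0.79, edgeR adjusted p = 0.000368). Leaving out any other library gave -2.86 to -2.42. The log2 ratio of Hk2 to Hk1 was higher in cluster 1 in 17 of 17 libraries, by 4.09 ± 1.82 (SD), a difference whose size depends on the 0.5 counts added before the logarithm.

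Eno1, the enolase gene of the later steps, was the member that separated the clusters without overlap. It was at 357, 539 and 744 CPM (lowest, median and highest) in control and 344, 544 and 672 CPM in E2 libraries of responsive cells. In cluster 1 it was at 70.2, 132 and 220 CPM in control and 11.7, 88.9 and 198 CPM in E2 sums. All sums of cluster 1 were below all responsive sums, and the log2 difference was -2.25 (SE 0.22, edgeR adjusted p = 1.58e-10). The share of all genes whose clusters did not overlap was not counted, so how unusual this is cannot be told. Cluster 1 was lower in 17 of 17 libraries. For 2.82% of all genes the sign was the same in all 17. A near-identical gene, Eno1b, held 15.2% as many reads as Eno1 and could take some of its reads. Eno1b was also called lower (log2 difference -1.13), and with its reads added Eno1 was at -2.05.

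Aldoc, the brain-type aldolase, was lower in cluster 1 in 17 of 17 libraries. Its levels in responsive cells were 88.7, 203 and 297 CPM in control and 72.4, 163 and 235 CPM in E2 libraries, and in cluster 1 they were 2.20, 47.5 and 108 CPM in control and 0, 26.0 and 58.6 CPM in E2 sums. The 2 clusters overlapped between 72.4 and 108 CPM, and the log2 difference was -2.20 (SE 0.37, edgeR adjusted p = 1.87e-05). Aldoa, the widely expressed aldolase, differed by -0.31 (SE 0.18, edgeR adjusted p = 0.259). The log2 ratio of Aldoc to Aldoa was lower in cluster 1 in 16 of 17 libraries, by 2.40 on average (SD 2.55).

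Pfkl and its sister genes Pfkm and Pfkp encode phosphofructokinase, the step that commits glucose to glycolysis. Pfkl was at 17.4, 69.7 and 127 CPM in control and 8.76, 42.5 and 70.1 CPM in E2 libraries of responsive cells, against 7.22, 26.4 and 37.2 CPM in control and 0, 5.03 and 27.2 CPM in E2 sums of cluster 1. It was lower in cluster 1 in 16 of 17 libraries, with overlapping ranges (log2 difference of -1.76, SE 0.37, edgeR adjusted p = 0.000471). Pfkm and Pfkp were not called, at -0.64 and -0.71. The other glycolysis members called lower were Pgk1 (-1.48), which makes the first ATP of the pathway, Pkm (-0.89), the pyruvate kinase, and Gpi1 (-0.73), which turns glucose 6-phosphate into fructose 6-phosphate. Pgk1 is uncertain: its near-identical retrogene Pgk1-rs7 held 203% as many reads, was itself called lower (-0.79), and gave Pgk1 a difference of -0.83 (edgeR adjusted p = 0.0158) once its reads and those of Gm5537 were added.

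Several central enzymes of the pathway were close to 0 or below the fold threshold in the same comparison. Gapdh differed by 0.03 (SE 0.12) and Ldha by 0.00 (SE 0.14). Tpi1 was at -0.43 with an edgeR adjusted p of 0.0288, which did not reach the fold threshold, and Pgam1 was at -0.33 (edgeR adjusted p = 0.0522). Ldhb was called higher in cluster 1, at 0.58 (SE 0.09, edgeR adjusted p = 6.07e-06), and was higher there in 16 of 17 libraries. The summed level of the 17 genes was 6484 to 9268 CPM in responsive control and 6147 to 8007 CPM in cluster 1 control sums. Without Ldhb the sums were 4742 to 6959 CPM and 3973 to 5040 CPM.

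**Figure D3:**
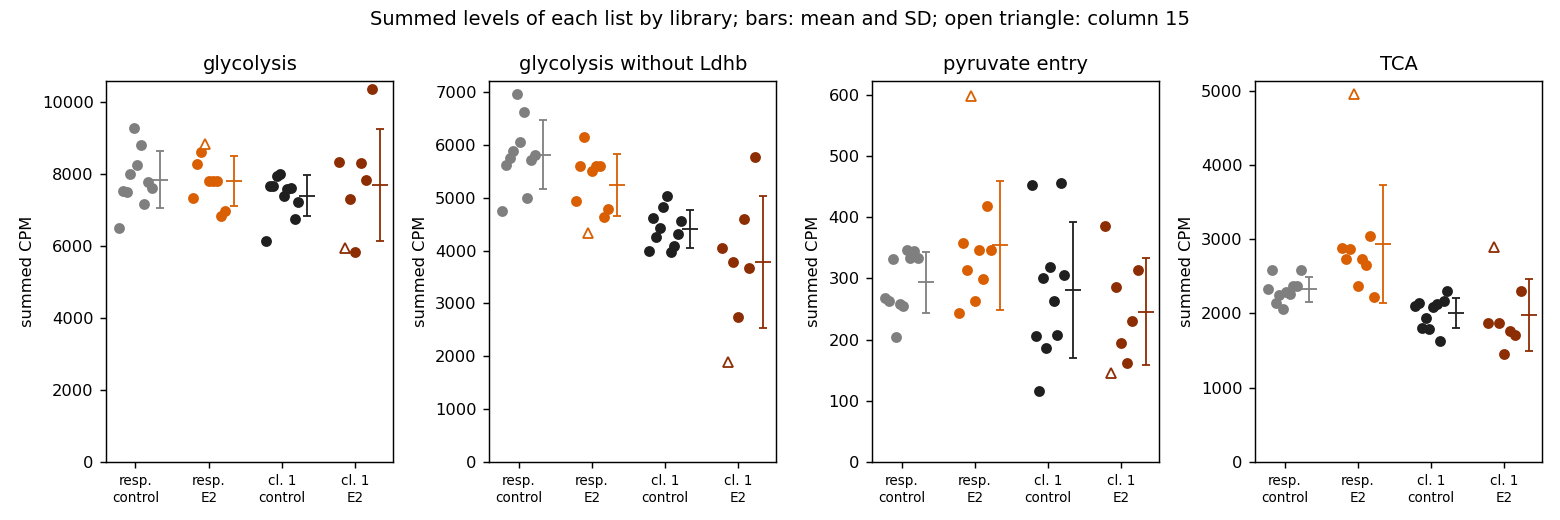
Summed CPM (y axis, from 0) of each list in each library (points) of 4 groups (x axis), with mean and SD beside them and column 15 as an open triangle. The glycolysis sums of responsive and cluster 1 control cells overlap with Ldhb and lie further apart without it.

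Pyruvate entry and the TCA cycle were called lower in cluster 1 for 4 of 20 members (20%) and higher for 0, beside 15.9% of all genes called (6.12% higher and 9.81% lower). One of these calls, that of Fh1, was lost when any one of 9 libraries was left out. Pdhb, the beta subunit of pyruvate dehydrogenase E1, was 1 of 5 pyruvate entry members called. It was at 35.7, 89.4 and 147 CPM in control and 77.7, 121 and 224 CPM in E2 libraries of responsive cells, and at 7.34, 47.7 and 73.4 CPM in control and 1.47, 46.9 and 84.6 CPM in E2 sums of cluster 1. Cluster 1 was lower in 15 of 17 libraries with overlapping ranges (log2 difference -1.27, SE 0.30, edgeR adjusted p = 0.00188). Pdha1, the alpha subunit of the same enzyme, was at 0.38 (SE 0.28, edgeR adjusted p = 0.381).

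Of 15 TCA members, 3 were called lower in cluster 1, and the median of the list was -0.32. Mdh1 was at 665, 876 and 964 CPM in control and 689, 927 and 1848 CPM in E2 libraries of responsive cells, against 278, 543 and 742 CPM in control and 287, 451 and 719 CPM in E2 sums of cluster 1. The ranges overlapped only between 665 and 742 CPM, and the log2 difference was -0.80 (SE 0.13, edgeR adjusted p = 1.10e-05). Idh1 was lower by 0.98 on the log2 scale in the fit (-0.98, SE 0.19, edgeR adjusted p = 0.000149), and by 0.79 without column 15 (-0.79).

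Fh1, the fumarase that makes malate, was at 44.3, 65.9 and 118 CPM in control and 42.9, 99.3 and 133 CPM in E2 libraries of responsive cells, and at 0, 40.0 and 118 CPM in control and 0, 6.75 and 83.8 CPM in E2 sums of cluster 1. The ranges overlapped widely. Its log2 difference of -1.24 (SE 0.42, edgeR adjusted p = 0.0346) was past the threshold with all libraries, but not when any one of control columns 2, 4, 8 and 9 or E2 columns 11, 14, 16, 17 and 19 was left out (edgeR adjusted p = 0.0516 to 0.0711). Of the 3 called TCA members, Idh1 and Mdh1 encode cytosolic enzymes and Fh1 encodes an enzyme found in mitochondria and cytosol. The mitochondrial counterparts Idh2 and Mdh2 were at 0.09 and 0.16. Citrate synthase (Cs), which opens the cycle, was at -0.24 (SE 0.23). Without column 15, Ogdh (-0.70, edgeR adjusted p = 0.0337) was also called lower and Suclg1, a subunit of succinyl-CoA ligase, was called higher (0.53, edgeR adjusted p = 0.00986).

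**Figure D4:**
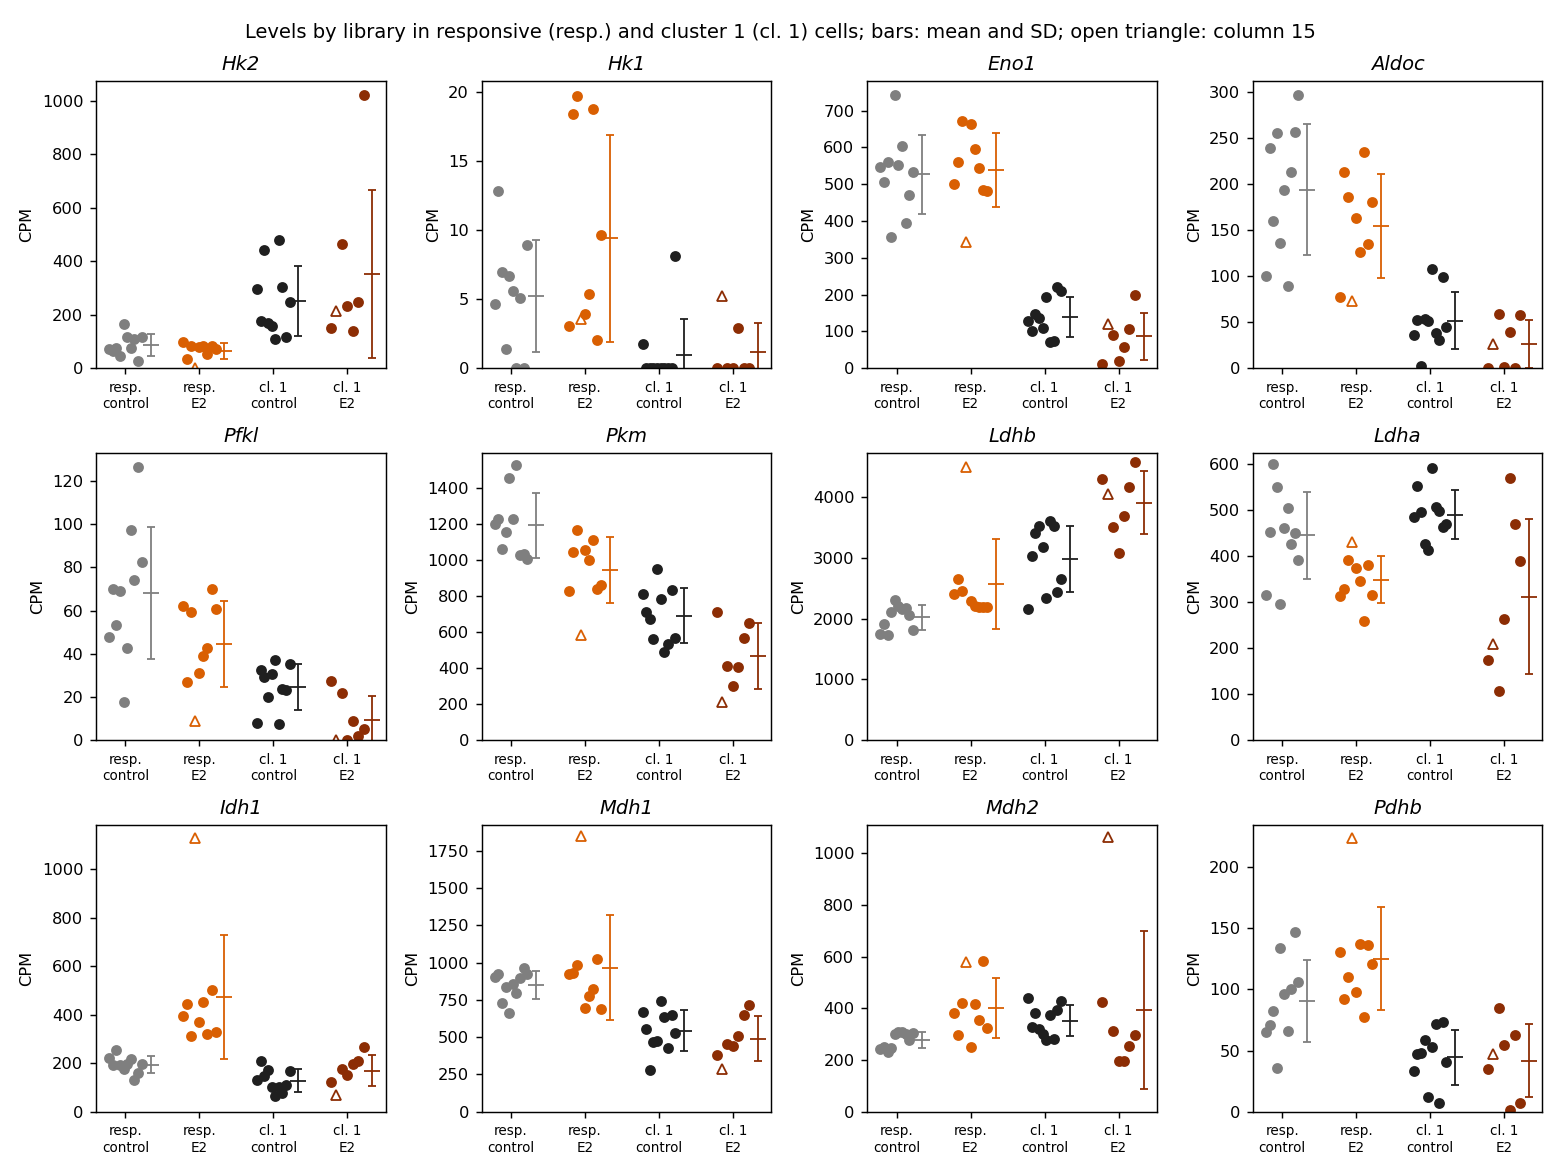
CPM (y axis, linear from 0) of 12 genes in each library (points) of 4 groups (x axis), with mean and SD beside them and column 15 as an open triangle. Eno1 does not overlap between the clusters, Idh1 does not overlap between control and E2 in responsive cells, and column 15 is the highest responsive E2 library for Idh1, Ldhb, Mdh1 and Pdhb.

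Genes around these pathways were counted from lists of carriers, shuttles and regulators. The counts for E2 in responsive cells stand beside 1.37% of all genes called (0.848% higher and 0.526% lower). Of 4 lactate and pyruvate carriers tested, 1 was called: Slc16a1, the lactate carrier MCT1, was at 70.8, 95.1 and 143 CPM in control and 126, 171 and 196 CPM in E2 libraries. These groups overlapped between 126 and 143 CPM, and the log2 fold change was 0.76 (SE 0.15, edgeR adjusted p = 0.00576). Of 29 other enzymes and carriers of pyruvate dehydrogenase, the TCA cycle and mitochondrial shuttles, 1 was called. It was Slc25a12, the aspartate-glutamate carrier of the malate-aspartate shuttle, at 10.2, 37.7 and 96.7 CPM in control and 105, 145 and 240 CPM in E2 libraries. Every E2 library was above every control library, with a log2 fold change of 1.76 (SE 0.30, edgeR adjusted p = 0.000775).

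Of 20 HIF genes and hypoxia targets outside glycolysis, 1 was called lower with E2 in responsive cells, beside 0.526% of all genes called lower. It was Ndrg1, a stress-response gene induced by hypoxia, at 668, 1008 and 1192 CPM in control and 368, 564 and 673 CPM in E2 libraries. The ranges touched between 668 and 673 CPM (log2 fold change -0.84, SE 0.13, edgeR adjusted p = 0.000440). None of 11 pentose phosphate genes and none of 10 other glycolytic isozymes and regulators was called with E2 (edgeR), and 1 pentose phosphate gene had an unadjusted p below 0.05 while 0 of the isozymes did. No gene of these 5 lists was called with E2 in cluster 1 by edgeR (3 had an unadjusted p below 0.05), DESeq2 or limma-voom, and these tools also made the same number of calls per list in responsive cells.

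Between the clusters the hypoxia list had 1 gene higher and 6 lower in cluster 1 of 20 tested. Vhl, which marks HIF for degradation, was higher (log2 difference 1.46), and the leading genes below it were Ndrg1 (-1.97), the carbonic anhydrase gene Car9 (-2.82), Bnip3l (-0.92) and the collagen prolyl hydroxylase gene P4ha1 (-0.67). Among TCA and shuttle enzymes 1 of 30 was higher, the malic enzyme gene Me3 (1.52), and 7 were lower, led by another malic enzyme gene, Me2 (-1.88), and the succinate dehydrogenase genes Sdhc (-1.56) and Sdhb (-1.23). Pck2 (-2.19), the mitochondrial phosphoenolpyruvate carboxykinase, came next by adjusted p, and was at -2.92 without control column 6. In the pentose phosphate pathway 3 of 11 were lower, namely Pgd (-1.29), Tkt (-1.97) and Shpk (-2.40). The Shpk call (edgeR adjusted p = 0.0454) was lost in 13 of 19 fits that left out 1 library, namely any one of control columns 3, 4, 8, 9 and 10 or of E2 columns 11, 12, 14, 16, 17, 18, 19 and 20 (edgeR adjusted p = 0.0513 to 0.0835). Bsg (-0.61), the chaperone of lactate carriers, was lower among 4 carriers tested, and the phosphoglucomutase gene Pgm1 (-1.56) among 13 other isozymes and regulators. These shares ran from 7.69% of the isozymes and regulators to 35.0% of the hypoxia list, beside 15.9% of all genes.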

How the data were processed

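Single-cell 3′ libraries were made by the authors on a Fluidigm C1 chip. The deposited estimated counts per gene and cell were made by the authors with kallisto 0.44.0 against GRCm38 (per the submitters' processing notes) and summed to genes with tximport after filters on cells and genes. kallisto can split reads between near-identical transcripts, and 66.9% of values above 0 were exactly whole. This share was 2.55% for Ldhb, 23.1% for Idh1 and 93.5% for Ldha. Gm5514, a gene near-identical to Ldhb, held 2.64% as many reads. With these added, the E2 log2 fold change of Ldhb in responsive cells was 0.34. The ratio of Ldhb to Ldha was not computed with them. There were no molecular identifiers. The metadata deposited by the authors give the SC3 cluster of each cell, the percent of mitochondrial reads, and a scran size factor (a ratio, not used in the fits). The imputed values were not used. Columns of per-sample values left unused numbered 0.

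Counts of a library and cluster were summed over at least 3 cells, rounded and tested with edgeR 4.0.16 in R 4.3.3 (TMM, filterByExpr, quasi-likelihood). The SE is the size of the change on the log2 scale over the root of the F statistic. The cluster fit had condition as covariate. The fits were also run on simulated counts with known changes, drawn with no effect shared by the 2 cluster sums of a library. That run cannot show whether the assumptions of the fits hold for these data. Ratios used summed counts plus 0.5 and exact permutation of libraries. Alternatives were DESeq2 1.42.0, limma-voom (limma 3.58.1), RLE factors, no gene filter, thinning to 20000 reads, at least 5 cells, k-means labels from 10 principal components, the library as a block, pseudocounts of 0.1 and 2, and leaving out each library. Adding the reads of near-identical genes was chosen after seeing the data. Such genes share at least 10% of 31-base words in the last 500 bases.

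The members and lists were chosen with earlier results of these data known. Fully described are members called with E2, the 4 glycolysis and 4 other members with the largest called differences between clusters, and the isozyme pairs. Related genes are named where called, up to 5 per list by adjusted p. Mdh2, Ogdh, Pcx, Suclg1 and the other members named beside these were chosen after their values were seen. Symbols came from GENCODE by Ensembl identifier (14135 of 14299 matched).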

Additional observations from a re-analysis of the deposited data

Results flagged for a closer look

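In 80 groups of 7 to 10 libraries, 8 values lay far from the rest of their group by Dixon's test, and chance flags about 1 in 20 groups. Of the flagged values, 5 were those of responsive cells of E2 column 15: Idh1 at 1130 CPM (other E2 libraries 313 to 502), Ldhb at 4495 CPM (2188 to 2652), Mdh1 at 1848 CPM (689 to 1027), Pdhb at 224 CPM (77.7 to 137) and Pfkp at 139 CPM (4.84 to 35.8). Without that library the E2 change in responsive cells was 1.00 for Idh1, 0.20 for Ldhb, 0.01 for Mdh1, 0.32 for Pdhb and 0.05 for Pfkp on the log2 scale.

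In cluster 1, Hk2 was at 1023 CPM in E2 column 20 (138 to 464 in the other sums) and Hk1 at 8.10 CPM in control column 10 (0 to 1.74 in the others). The log2 ratio of Aldoc to Aldoa in cluster 1 was -7.99 in control column 3 (-4.37 to -2.32 in the others).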

How the results depend on the processing

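Over 57 results and 1542 values under alternatives, 0 changed direction among called values, and 1461 were labelled the same. For a gene or ratio, the same means an unchanged direction and side of the threshold. For a count of calls it means only a count of similar size, within which single genes could be lost or gained. Of the rest, 51 were no longer past the threshold, 2 were newly past it and 28 moved in size. Some settings could not change a value, such as leaving out E2 columns 12 and 14 for cluster 1 ratios, where they had no sum. Among these results, the gene calls between the clusters that were lost when 1 library was left out included those of Got1 (14 of 19 fits), Shpk (13) and Fh1 (9). The E2 rise of Idh1 held in all 27 alternatives (1.00 to 1.33), as did those of Slc16a1 (0.71 to 1.01) and Slc25a12 (1.53 to 1.98) and the lower Ndrg1 (-0.88 to -0.78). Not all of the 27 could alter these values. Every responsive sum held at least 5 cells, so that setting repeated the main fit. Adding near-identical genes changed the reads of none of these genes. For E2 in responsive cells, 2 pyruvate entry and TCA members were called with DESeq2 and after thinning, where Mdh2 joined Idh1, and 1 to 2 when a library was left out (2 without E2 column 16). Over all genes DESeq2 called 234 (main 141). In cluster 1, E2 calls over all genes were 7, 52 with DESeq2, 1 with no gene filter and 1 to 9 when a library was left out. For the difference between clusters, 21 genes were called, 98 with DESeq2, 13 with limma-voom, 12 after thinning, 0 with the library as a replicate block (902 had an unadjusted p below 0.05) and 15 to 44 when a library was left out. Members called for it then numbered 0 to 1, Idh3a without E2 column 16. Between the clusters limma-voom called 2624 genes (main 1689), with 574 higher and 2050 lower. With the library as a replicate block 368 were higher and 1471 lower, and Slc2a1 (-2.74) and Tpi1 (-0.51) were called too. DESeq2 and RLE factors also called Suclg1 higher (0.55 and 0.54), as did leaving out E2 column 17 (0.52). Control and E2 libraries share no replicate numbers, so the block pairs only the clusters within a library. The E2 difference of Hk2 to Hk1 in responsive cells ran from -2.25 to -1.52 when a library was left out (adjusted p = 0.0490 without E2 column 19, exact permutation). That of Pfkp to Pfkl in cluster 1 ran from 1.96 to 3.54 (adjusted p = 0.0133 without E2 column 16, exact permutation). Without column 15 these 2 differences were -1.53 and 2.81, not past the threshold (adjusted p = 0.133 for each, exact permutation). The causes were not tested. Depth limits the E2 results of cluster 1, whose E2 sums held 3 to 9 cells.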
